A study of Mus musculus with 6 samples.

Results

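Autophagy and lysosome genes were examined in the liver of a mouse model of premature ageing. The 42 genes were listed by name and known role, but with earlier results of these data known, so their counts are descriptions. All 42 had at least 1 probe set annotated to that gene alone, out of 19938 genes so represented on the array. They fall into 9 roles: 29 genes build the autophagosome or carry cargo into it, 2 encode transcription factors of the TFEB type, and 11 encode proteins of the lysosomal membrane or lysosomal hydrolases. Of these genes, 16 were higher and 6 lower in knock-in liver than in wild-type liver, and 20 did not pass the test. Over all tested probe sets 14.9% were higher and 10.9% lower, shares not matched to the brightness of the 42 genes. Of the 29 autophagosome and cargo receptor genes, which make up most of the 42, 14 (48.3%) were higher and 3 (10.3%) lower. Among those higher were Atg2a (2.44-fold), Wipi1 (2.25-fold) and Map1lc3b (1.81-fold). With 1 mouse left out, 8 to 13 of the 29 were higher. Of 19 other autophagosome genes 15.8% were higher, near the share of all tested probe sets. Of the 11 lysosomal genes, Ctsl rose 2.21-fold, Lamp1, Ctsb and Hexa fell, and the other 7 were not called.

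The study compared 3 female C57BL/6 mice homozygous for the G609G allele of Lmna (LmnaG609G/G609G, replicates 1, 3 and 5) with 3 female wild-type mice (replicates 2, 4 and 6). All mice of both genotypes were 3 months old and had been fasted for 6 h. Lmna encodes lamins A and C of the nuclear envelope, and the allele is carried in every cell of the animal, so liver changes are not separated from those of other organs. Total RNA of whole liver was hybridised to 1 array per mouse, and each array gave 1 intensity for each of 35512 probe sets.

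In macroautophagy a membrane cup grows around part of the cytoplasm and closes into an autophagosome, which fuses with a lysosome, where hydrolases break down the content. The ULK kinase complex starts the process, a class III PI3-kinase marks the membrane with the lipid PI3P, ATG2 and ATG9 supply lipid, and conjugation enzymes attach ATG8 proteins (LC3 and GABARAP) to the membrane, where cargo receptors bind them. In liver the pathway supplies amino acids and lipid during fasting and removes worn mitochondria and endoplasmic reticulum. Transcription factors of the TFEB type and the FOXO factors are known to switch on many of its genes. A transcript level does not measure the flow of cargo through the pathway.

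Array medians lay between 97 and 104 intensity units. The hepatocyte markers measured summed to between 117864 and 133933 on the 6 arrays, so the tissue carried its defining markers. Lmna itself read 290, 249 and 258 in knock-in mice 1, 3 and 5 and 282, 267 and 362 in wild-type mice 2, 4 and 6, with overlap between the genotypes and no call (log2 change -0.17 ± 0.13 SE, limma adjusted p = 0.398). The allele acts on splicing, which this probe set does not check. Knock-in mouse 3 lay nearest to the wild-type mice: among probe sets called different it was the knock-in mouse closest to the wild-type mean in 65.2%, and among the 22 called autophagy and lysosome genes in 17.

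A gene was called higher or lower when its limma adjusted p, with Benjamini-Hochberg adjustment over 26634 tested probe sets, was below 0.05. All 42 genes passed the filter on dim probe sets, with mean levels between the 68.2 and 99.2 percentiles of all probe sets. In all, 25.9% of tested probe sets were called. That share rose with brightness: it was 17.8% with no filter and 36.8% with a filter at the 50th percentile. Of the 42 genes 52.4% were called, 38.1% higher and 14.3% lower. No share matched to the brightness of the 42 genes was computed. Changes ran both ways, from -1.21 (Ulk2) to 1.29 (Atg2a) on the log2 scale, and their median of 0.03 equalled that of all tested probe sets, 0.03. The genotypes did not overlap in 25 of the 42 genes (59.5%), against 41.1% of tested probe sets, a share also not matched for brightness. These counts moved with the mice in the fit. Without knock-in mouse 1, 10 genes were called higher and 4 lower, while 4236 probe sets were called over the whole table. Leaving out knock-in mouse 3 gave 15 higher and 8 lower. Of the 22 calls, 13 passed under every alternative tried: Ulk2, Atg14, Uvrag, Rubcn, Atg2a, Wipi1, Atg10, Map1lc3b, Bnip3, Bnip3l, Tfe3, Lamp1 and Ctsl.

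**Figure D1:**
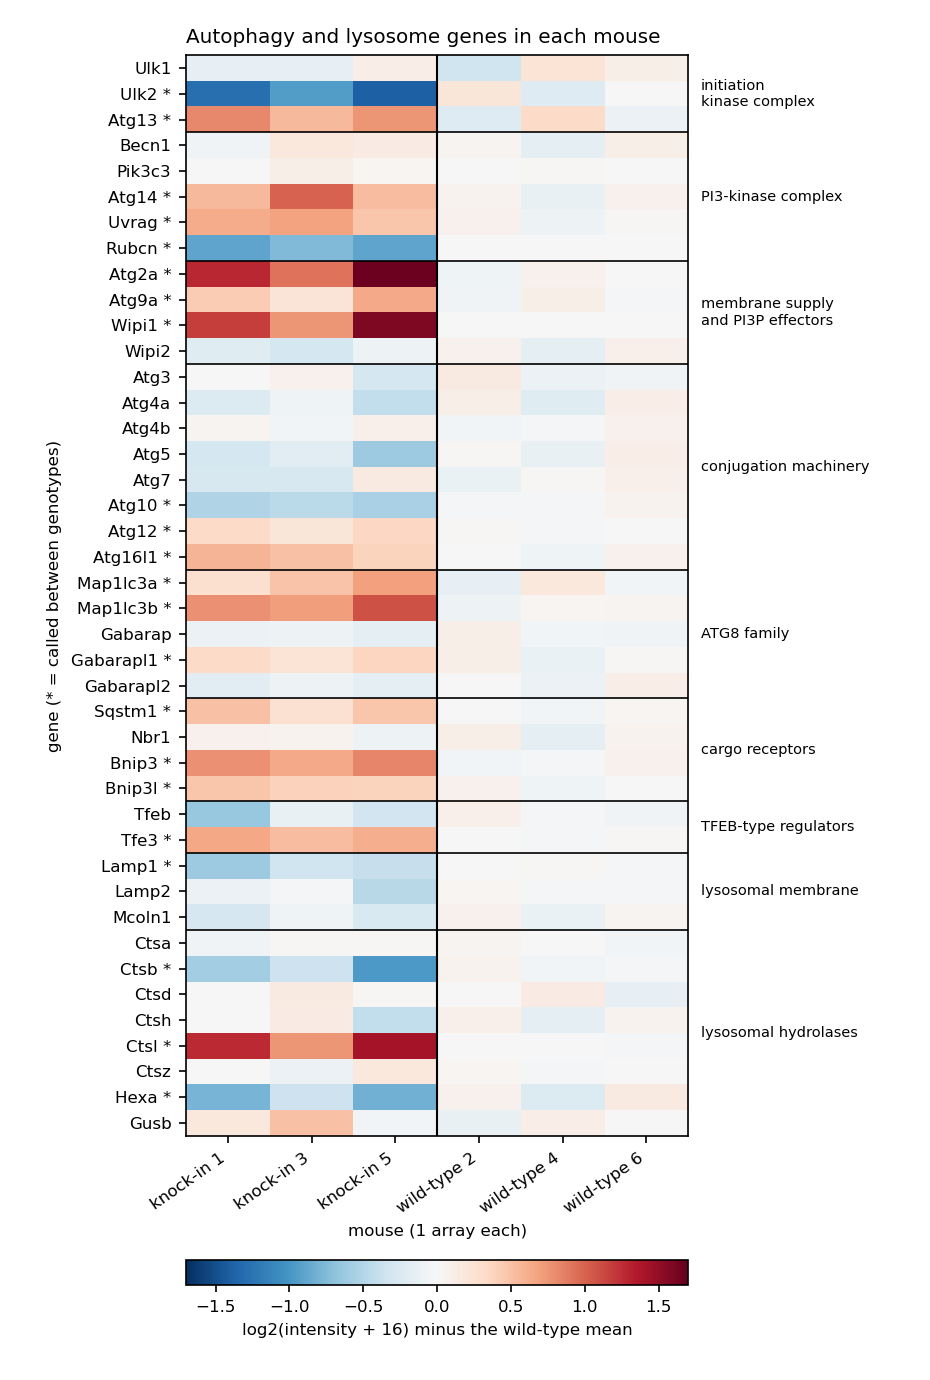
Each row is 1 of the 42 genes, grouped by role, and each column 1 mouse; colour gives log2(intensity + 16) minus the wild-type mean of that gene, and an asterisk marks a called gene. The knock-in columns are red for Atg2a, Wipi1, Map1lc3b and Ctsl and blue for Ulk2, Rubcn and Ctsb, with knock-in mouse 3 paler in 17 of the 22 called genes.

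The roles hold 2 to 8 genes each, and their counts stand beside 14.9% of all tested probe sets called higher and 10.9% lower. The initiation complex changed in both directions, with 1 of 3 genes higher and 1 lower. Ulk2, which encodes an initiating kinase, read 285, 365 and 264 in knock-in mice 1, 3 and 5 and 832, 613 and 722 in wild-type mice 2, 4 and 6. Every knock-in mouse lay below every wild-type mouse, and the level was 2.31-fold lower (log2 change -1.21 ± 0.16 SE, adjusted p = 0.00218). All fold changes here are on the log2(intensity + 16) scale. Atg13, the adaptor that binds the ULK kinases, read 2618, 2181 and 2521 in knock-in mice and 1271, 1863 and 1384 in wild-type mice. The genotypes did not overlap, and the level was 1.63-fold higher (adjusted p = 0.0145). Without knock-in mouse 1, wild-type mouse 2 or wild-type mouse 6 the Atg13 call was lost (adjusted p from 0.0501 to 0.0612). Ulk1, the closely related kinase, read 1273, 1282 and 1519 against 1111, 1662 and 1510. These ranges overlapped, and the 95% interval of its log2 change ran from -0.43 to 0.32. The log2 ratio of Ulk2 to Ulk1 within a mouse was 1.15 lower in knock-in mice, with no overlap. This pair and those given below were chosen with their changes known. Only the difference of such a ratio between genotypes has a meaning here, since probe sets differ in brightness.

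In the PI3-kinase complexes, the subunits that tell one complex from another differed while the shared ones did not pass the test. Atg14, the subunit of the complex that forms autophagosomes, read 596, 822 and 586 in knock-in mice and 419, 366 and 424 in wild-type mice. Uvrag, which takes its place in the complex that acts on endosomes and on autophagosome maturation, read 860, 895 and 766 against 578, 517 and 558. Neither gene overlapped between the genotypes, and they were 1.62-fold (adjusted p = 0.0136) and 1.51-fold (adjusted p = 0.00588) higher. Rubcn encodes Rubicon, an inhibitor of the UVRAG-containing complex. It read 167, 187 and 168 in knock-in mice and 325, 323 and 328 in wild-type mice, 1.80-fold lower with no overlap (log2 change -0.85 ± 0.09 SE, adjusted p = 0.00105). Becn1 and Pik3c3, the scaffold and the catalytic subunit of both complexes, had log2 changes of 0.09 (95% interval -0.18 to 0.35) and 0.04 (-0.16 to 0.24).

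Of the 4 genes that supply membrane or bind PI3P, 3 were higher, and their median log2 change of 0.80 was the highest of the 9 roles. Atg2a, a lipid transfer protein that feeds the growing membrane, read 1465, 1138 and 1919 in knock-in mice and 563, 629 and 593 in wild-type mice, 1507 ± 392 against 595 ± 33 (SD, n = 3). The lowest knock-in mouse, number 3, was still above every wild-type mouse, and the log2 change was 1.29 ± 0.18 (SE, adjusted p = 0.00275). Wipi1, a PI3P-binding protein of the forming autophagosome, read 825, 607 and 1097 against 358, 354 and 352. Wild-type mice were nearly level while knock-in mice spread widely (843 ± 246 against 355 ± 3.06, SD, n = 3), with no overlap and a log2 change of 1.17 ± 0.20 (SE, adjusted p = 0.00513). Atg9a, the lipid scramblase of the vesicles that seed the membrane, read 1104, 952 and 1285 against 782, 874 and 801, without overlap. It was 1.34-fold higher (adjusted p = 0.0441), a call lost when any mouse but knock-in 3 was left out (adjusted p from 0.0671 to 0.134) and under quantile normalization, median centring or no filter (0.0594 to 0.0691). Wipi2, the relative of Wipi1 that recruits the conjugation machinery, was not called (log2 change -0.19, 95% interval -0.45 to 0.06). The log2 ratio of Wipi1 to Wipi2 within a mouse was 1.37 higher in knock-in mice, with no overlap.

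Of the 8 genes of the conjugation machinery 2 were higher and 1 lower, with a median log2 change of -0.11; this was the lowest share called (37.5%) among the roles of the autophagosome. Atg16l1, the subunit that places the conjugation complex on the membrane, read 868, 823 and 755 in knock-in mice and 583, 548 and 607 in wild-type mice. Atg12, the ubiquitin-like protein joined to ATG5, read 301, 276 and 308 against 242, 234 and 236. Both were higher in every knock-in mouse, by 1.40-fold (adjusted p = 0.0114) and 1.23-fold (adjusted p = 0.045). The Atg16l1 call was lost without knock-in mouse 1 (adjusted p = 0.0522), and the Atg12 call without any mouse but knock-in 3 (0.0997 to 0.139) and under quantile normalization, median centring or no filter (0.0501 to 0.0913). Atg10, the enzyme that joins ATG12 to ATG5, read 325, 337 and 316 against 461, 457 and 489. It was 1.42-fold lower with no overlap (adjusted p = 0.00621). Atg5 itself read 431, 464 and 341 against 541, 488 and 577, without overlap, but was not called (log2 change -0.37 ± 0.14 SE, adjusted p = 0.0838). Without knock-in mouse 3 it passed (log2 change -0.46, adjusted p = 0.0433). The E1-like enzyme Atg7, the E2-like enzyme Atg3 and the ATG8 proteases Atg4a and Atg4b overlapped between the genotypes, with log2 changes of -0.13, -0.08, -0.24 and 0.03. The Atg4a value comes from the brighter of 2 probe sets, and whether it reads a near-identical copy was not tested. The dimmer Atg4a probe set gave -0.20.

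Among the ATG8 proteins, which coat the membrane and bind cargo receptors, 3 of 5 genes were higher. Map1lc3b, the LC3 protein most used to mark autophagosomes, read 3938, 3781 and 4889 in knock-in mice and 2169, 2351 and 2373 in wild-type mice. The genotypes were far apart, 4203 ± 600 against 2298 ± 112 (SD, n = 3), and the log2 change was 0.86 ± 0.11 (SE, adjusted p = 0.00222). A second, dimmer probe set of the gene gave 0.80 (adjusted p = 0.00375). Map1lc3a read 420, 491 and 571 against 313, 394 and 334, and Gabarapl1 read 6583, 6123 and 6739 against 5610, 4829 and 5280. Both were higher without overlap, by 1.40-fold (adjusted p = 0.0407) and 1.24-fold (adjusted p = 0.0301), but neither call was stable. That of Map1lc3a was lost without knock-in mouse 3 or 5 or wild-type mouse 2 or 6 (adjusted p from 0.0659 to 0.134) and under quantile normalization, median centring or no filter (0.0502 to 0.0606). The Gabarapl1 call was lost without knock-in mouse 1 or 5 or wild-type mouse 4 or 6 (0.0721 to 0.0993) and under median centring (0.083), which left 1 of the 5 genes called higher. Gabarap read 6456, 6503 and 6204 against 7371, 6681 and 6637, lower in every knock-in mouse but not called (log2 change -0.11 ± 0.07 SE, adjusted p = 0.316). For Gabarapl2 the probe sets disagreed: the brighter, with a mean of 2368, gave -0.15 and was not called, and a dim one, with a mean of 88, gave 0.51 and was called higher (adjusted p = 0.00463). The count of 3 of 5 uses the brighter one. Whether the brighter probe set reads a near-identical copy of the gene was not tested, here or for Map1lc3b. The log2 ratio of Map1lc3b to Gabarap was 0.97 higher in knock-in mice.

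Cargo receptors rose in 3 of 4 cases. Bnip3, a receptor on the outer mitochondrial membrane used in mitophagy, read 8611, 7816 and 8912 in knock-in mice and 4847, 4942 and 5254 in wild-type mice. It was 1.68-fold higher with no overlap (log2 change 0.75 ± 0.08 SE, adjusted p = 0.00101), and its second probe set gave 0.95 (adjusted p = 0.000946). Bnip3l, the related mitophagy receptor also called NIX, read 7971, 7501 and 7458 against 6004, 5456 and 5739. Sqstm1, which encodes p62, the receptor for ubiquitin-tagged cargo, read 6417, 5435 and 6296 against 4558, 4381 and 4656. The values of Bnip3 and Bnip3l come from the brighter of their probe sets, and whether these read near-identical copies was not tested; the dimmer one of Bnip3l gave a log2 change of 0.45 (adjusted p = 0.00561). Bnip3l and Sqstm1 were both 1.33-fold higher with no overlap (adjusted p = 0.00527 for Bnip3l and 0.0119 for Sqstm1). The Sqstm1 call was lost without knock-in mouse 1 (adjusted p = 0.0522). Nbr1, the other ubiquitin-binding receptor measured here, overlapped between the genotypes (log2 change 0.02, 95% interval -0.22 to 0.25).

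**Figure D2:**
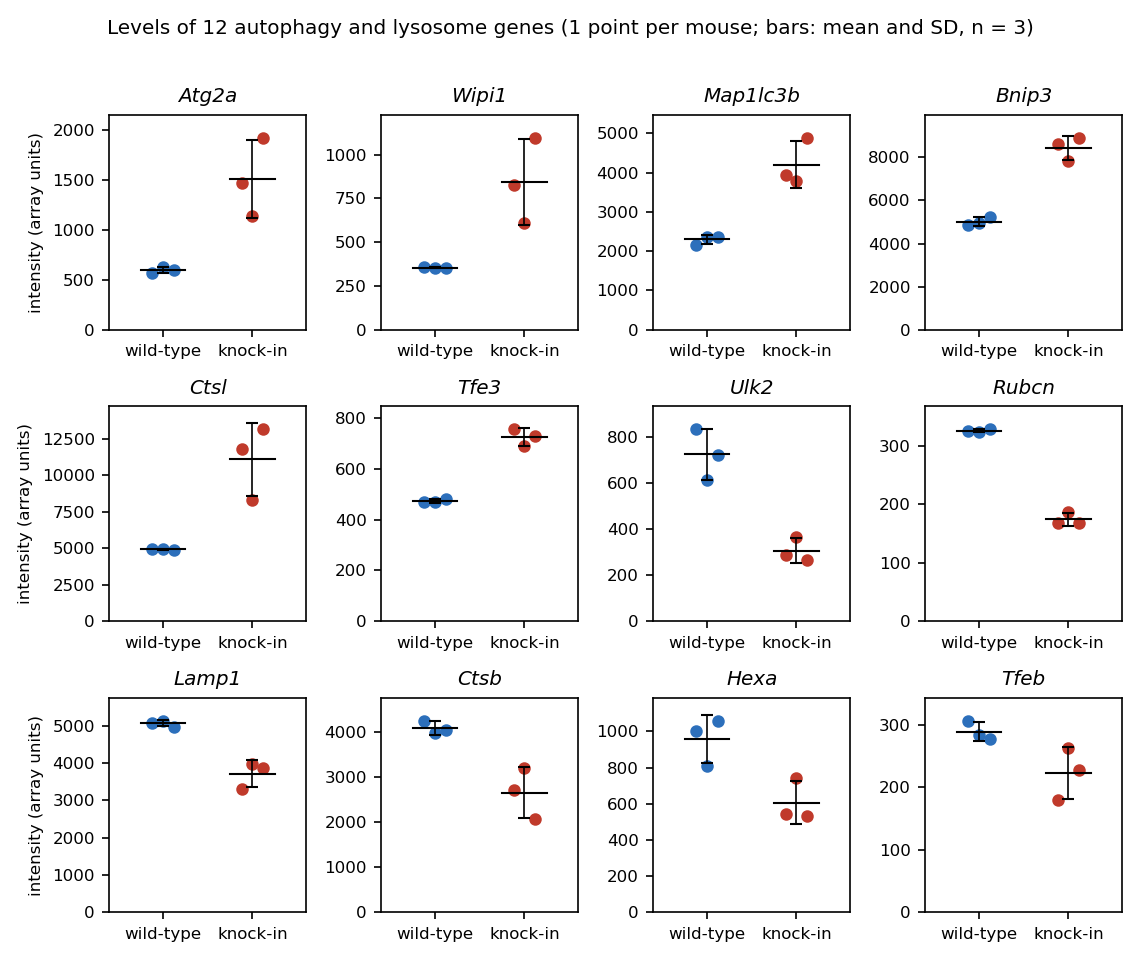
Intensities of 12 of the genes, each panel on its own linear scale from 0, with 1 point per mouse and bars for the mean and SD of 3 mice per genotype. In all 12 panels the genotypes do not overlap; Tfeb, in the last panel, was not called (adjusted p = 0.0966), and wild-type mice of Wipi1 (352 to 358) and Rubcn (323 to 328) lie almost on 1 line.

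The paired transcription factors pointed in different directions. Tfe3 read 756, 688 and 731 in knock-in mice and 471, 468 and 480 in wild-type mice, 1.51-fold higher (log2 change 0.60 ± 0.09 SE, adjusted p = 0.00341). Tfeb read 180, 263 and 228 against 307, 284 and 277. Every knock-in mouse lay below every wild-type mouse, but Tfeb was not called (log2 change -0.36 ± 0.14 SE, adjusted p = 0.0966), and without knock-in mouse 3 it passed (log2 change -0.48, adjusted p = 0.0295). The log2 ratio of Tfe3 to Tfeb within a mouse was 0.96 higher in knock-in mice. These factors are held in the cytoplasm by phosphorylation, which an array does not measure.

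TFEB and TFE3 bind the E-box CACGTG, the core of the CLEAR element of lysosomal promoters. RefSeq promoter windows of GRCm38.p6 (250 bases before to 50 after a start) were given for 34 of the 42 genes. CACGTG, a palindrome that reads the same on both strands, lay in 11 of the 34 (32.4%), against 8.09% of the 27025 genes with a window; base composition was not matched. The E-box was found in 3 of 12 genes called higher (Atg14, Bnip3 and Ctsl), 2 of 5 called lower (Lamp1 and Rubcn) and 6 of 17 not called (Atg3, Atg5, Atg7, Ctsa, Ctsd and Mcoln1), and the difference between these shares was not tested. The palindromic CLEAR element of 10 bases, which contains CACGTG, was in 0 of the 34 genes (0.37% of genes with a window), and the forkhead motif GTAAACA, searched on both strands, was in 0 as well (4.05%). A match is a description of these letters and not evidence of binding. The 250 bases before the start are shown for 6 genes that carry the E-box, in capitals, and that differ in outcome: Ctsl and Bnip3 were called higher, Lamp1 and Rubcn lower, and Ctsd and Mcoln1 were not called. Lamp1 has 4 copies within the 61 bases before its start. Each sequence runs 5′ to 3′ on the strand of its gene and ends at the base before the start: Lamp1 at chr8:13158911-13159160 (plus strand), Mcoln1 at chr8:3500269-3500518 (plus), Ctsd at chr7:142387828-142388077 (minus), Ctsl at chr13:64370521-64370770 (minus), Bnip3 at chr7:138909507-138909756 (minus) and Rubcn at chr16:32868367-32868616 (minus).
Lamp1: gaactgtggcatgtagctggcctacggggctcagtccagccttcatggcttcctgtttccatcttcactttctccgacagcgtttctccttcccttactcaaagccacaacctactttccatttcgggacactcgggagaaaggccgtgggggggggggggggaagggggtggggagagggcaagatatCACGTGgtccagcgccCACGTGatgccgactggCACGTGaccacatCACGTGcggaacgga
Mcoln1: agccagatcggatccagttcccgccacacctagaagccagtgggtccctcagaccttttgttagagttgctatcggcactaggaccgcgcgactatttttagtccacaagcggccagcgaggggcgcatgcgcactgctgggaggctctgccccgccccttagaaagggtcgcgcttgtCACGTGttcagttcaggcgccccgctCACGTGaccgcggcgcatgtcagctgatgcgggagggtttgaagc
Ctsd: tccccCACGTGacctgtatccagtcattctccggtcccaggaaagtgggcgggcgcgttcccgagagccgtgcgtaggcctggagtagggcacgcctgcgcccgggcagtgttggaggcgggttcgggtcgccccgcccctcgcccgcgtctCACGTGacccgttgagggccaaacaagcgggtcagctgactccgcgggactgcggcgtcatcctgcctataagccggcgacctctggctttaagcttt
Ctsl: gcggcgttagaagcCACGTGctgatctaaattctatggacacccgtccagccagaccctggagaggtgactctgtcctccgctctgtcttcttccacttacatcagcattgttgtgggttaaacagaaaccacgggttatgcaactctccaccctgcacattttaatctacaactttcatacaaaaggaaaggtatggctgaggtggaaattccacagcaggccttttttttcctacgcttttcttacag
Bnip3: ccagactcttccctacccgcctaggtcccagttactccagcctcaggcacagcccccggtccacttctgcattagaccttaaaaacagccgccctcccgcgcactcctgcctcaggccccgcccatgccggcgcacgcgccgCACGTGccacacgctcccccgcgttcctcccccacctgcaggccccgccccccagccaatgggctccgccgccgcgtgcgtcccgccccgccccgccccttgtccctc
Rubcn: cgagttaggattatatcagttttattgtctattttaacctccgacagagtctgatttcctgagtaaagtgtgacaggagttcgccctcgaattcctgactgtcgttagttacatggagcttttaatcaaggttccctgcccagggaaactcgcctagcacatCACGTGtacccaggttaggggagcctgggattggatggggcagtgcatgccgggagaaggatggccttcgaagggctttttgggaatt

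Of the 3 lysosomal membrane genes 1 was lower, and all 3 had log2 changes below 0. Lamp1, a major glycoprotein of the lysosomal membrane, read 3299, 3981 and 3851 in knock-in mice and 5077, 5132 and 4973 in wild-type mice. The genotypes did not overlap, and the level was 1.37-fold lower (log2 change -0.45 ± 0.09 SE, adjusted p = 0.0101). Lamp2, its relative whose isoform A is the receptor of chaperone-mediated autophagy, and Mcoln1, the lysosomal calcium channel, had log2 changes of -0.20 and -0.21, with 95% intervals that included 0. For Lamp2 the levels overlapped between the genotypes (6698, 7074 and 5179 against 7359, 7070 and 7086).

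The 8 lysosomal hydrolases split, with 1 higher, 2 lower and 5 not called, and a median log2 change of 0.01. Ctsl, the cysteine protease cathepsin L, read 11852, 8287 and 13178 in knock-in mice and 4945, 4964 and 4848 in wild-type mice. Wild-type mice were nearly level, 4919 ± 62.2, and knock-in mice spread widely above them, 11106 ± 2530 (SD, n = 3), with a log2 change of 1.15 ± 0.16 (SE, adjusted p = 0.00265). Ctsb, the related cysteine protease cathepsin B, read 2714, 3196 and 2061 against 4254, 3971 and 4042. It was 1.56-fold lower with no overlap (log2 change -0.64 ± 0.15 SE, adjusted p = 0.0199). Hexa, a subunit of beta-hexosaminidase, read 542, 742 and 533 against 1005, 807 and 1060, 1.57-fold lower with no overlap (adjusted p = 0.0238). The Ctsb call was lost without knock-in mouse 1 or any wild-type mouse (adjusted p from 0.0518 to 0.0677), and the Hexa call without knock-in mouse 1 or 5 or wild-type mouse 2 or 6 (0.0709 to 0.0902). The log2 ratio of Ctsl to Ctsb within a mouse was 1.79 higher in knock-in mice, with ranges that did not overlap. The carboxypeptidases Ctsa and Ctsz, the proteases Ctsd and Ctsh and the beta-glucuronidase Gusb overlapped between the genotypes, with log2 changes from -0.09 (Ctsh) to 0.21 (Gusb). Of all 20 genes not called, 16 had a 95% interval within 0.5 log2 units of 0.

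**Figure D3:**
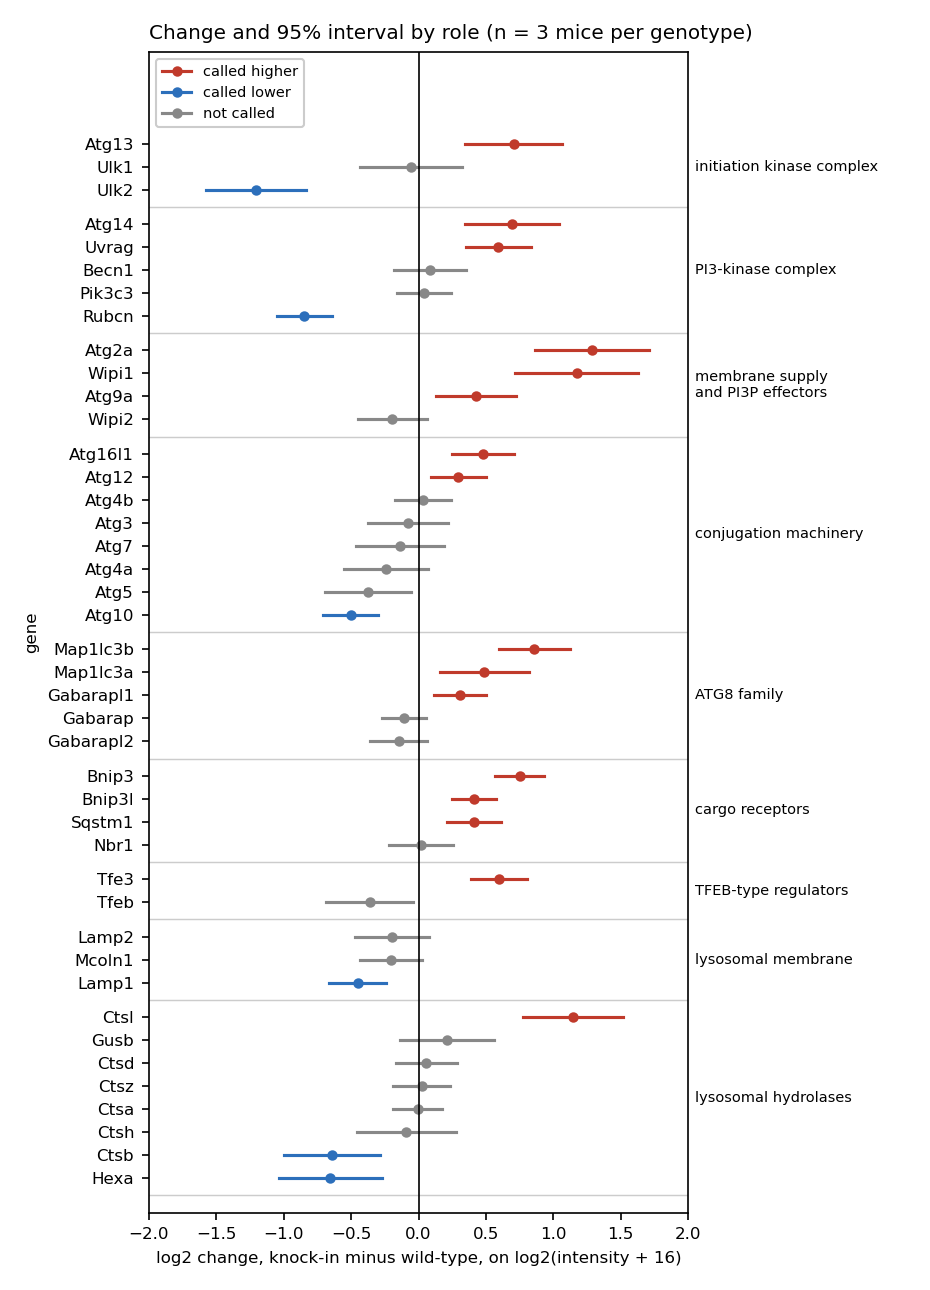
Points give the log2 change, knock-in minus wild-type, of each of the 42 genes on the log2(intensity + 16) scale, and lines its 95% interval from limma (3 mice per genotype). Atg2a (1.29), Wipi1 (1.17) and Ctsl (1.15) lie furthest right and Ulk2 (-1.21) furthest left, and within most roles called and uncalled genes stand side by side.

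The ratios within a mouse were computed for 6 pairs of related genes, and the pairs were chosen with their changes known. In an exact two-sided permutation test the 5 ratios given above had p = 0.1 (0.12 after Benjamini-Hochberg adjustment over the 6), the smallest p that 3 mice against 3 allow. Given how the pairs were chosen, these p-values are not evidence of a difference. The ratio of Lamp1 to Lamp2 differed by -0.26 with p = 0.4 in the same exact test, and its ranges overlapped.

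Other genes of the pathway, from 7 lists, were called in both directions: of 135 tested, 18 (13.3%) were higher, 26 (19.3%) lower and 91 not called, with a median log2 change of -0.03. The share higher was near the 14.9% of all tested probe sets. The genes named from these lists are the up to 3 called genes with the largest change in each, and any others were named after their values were seen. Among 19 other autophagosome genes 3 were higher (Atg16l2 2.02-fold, Rb1cc1 1.52-fold and Atg4d 1.39-fold) and 2 lower (Tmem41b 1.53-fold and Epg5 1.30-fold). These shares, 15.8% and 10.5%, were near the 14.9% and 10.9% of all tested probe sets. Atg16l2, the relative of Atg16l1, read 331, 307 and 356 in knock-in mice and 147, 179 and 142 in wild-type mice, with no overlap (adjusted p = 0.0013). The other 4 calls were each lost without any of 5 of the 6 mice (adjusted p from 0.0539 to 0.133), all except knock-in mouse 5 for Rb1cc1 and all except knock-in mouse 3 for the rest. Rb1cc1 was also not called under quantile normalization, median centring or no filter (0.0527 to 0.0735), Atg4d under median centring or no filter (0.0558 and 0.0515), and Tmem41b with no filter (0.0561).

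The 12 other cargo receptors held the steepest rise of the pathway lists. Retreg1, also called FAM134B, a receptor for endoplasmic reticulum, read 3272, 2699 and 3088 in knock-in mice and 830, 897 and 925 in wild-type mice. The genotypes were far apart, and the level was 3.37-fold higher (log2 change 1.75 ± 0.10 SE, adjusted p = 0.000159). Ncoa4, the receptor that delivers ferritin to lysosomes, read 5287, 4557 and 4909 against 2078, 2294 and 2308, 2.20-fold higher with no overlap (adjusted p = 0.000428). These values come from the brighter of 2 probe sets of Ncoa4, and whether it reads a near-identical copy was not tested. The same holds for Tmem41b, Arsb and Clec4g. Tax1bp1, another ubiquitin-binding receptor, was 1.51-fold higher (adjusted p = 0.0102). Stbd1, which tethers glycogen, read 144, 178 and 123 against 400, 283 and 406, 2.30-fold lower with no overlap (adjusted p = 0.0032). Tex264, a further receptor for endoplasmic reticulum, was 1.34-fold lower (adjusted p = 0.013), a call lost without knock-in mouse 1 (0.0565) or wild-type mouse 2 (0.0503).

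Of 19 other regulators, 4 were higher and 4 lower, 21.1% in each direction beside 14.9% and 10.9% of all tested probe sets. Foxo3 and Foxo1, forkhead factors that drive autophagy genes in fasting, were 1.86-fold (adjusted p = 0.00879) and 1.85-fold (adjusted p = 0.0168) higher. Fnip2, a partner of folliculin in nutrient sensing at the lysosome, read 202, 289 and 197 in knock-in mice and 874, 809 and 751 in wild-type mice. It was 3.41-fold lower, with no overlap (log2 change -1.77 ± 0.16 SE, adjusted p = 0.000608), while its relative Fnip1 was 1.37-fold higher (adjusted p = 0.0223). Mtor, the kinase that holds autophagy and TFEB in check when nutrients are plentiful, read 559, 525 and 675 against 935, 1025 and 1062. It was 1.71-fold lower with no overlap (adjusted p = 0.0041). Ppp3ca and Ppp3cb, catalytic subunits of the phosphatase calcineurin, moved in opposite directions, 1.32-fold higher (adjusted p = 0.0264) and 1.52-fold lower (adjusted p = 0.014), and Ywhab was 1.36-fold lower (adjusted p = 0.0258). The calls of Foxo1 (without knock-in mouse 5), Fnip1 (knock-in 1 or 5, wild-type 4 or 6), Ppp3cb (knock-in 1, wild-type 2), and Ppp3ca and Ywhab (any mouse but knock-in 3) were lost with adjusted p from 0.0501 to 0.0981. Ppp3ca was also lost under median centring (0.0577).

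The fusion machinery list held 13 genes, most but not all of them of complexes that join autophagosome to lysosome. It had 4 called higher by limma and 0 lower (6 and 2 at an unadjusted p below 0.05). The share higher was 30.8%, beside 14.9% of all tested probe sets. Those called were Plekhm2 (1.66-fold), Vps11 (1.55-fold), Vps39 (1.37-fold) and Vps16 (1.34-fold), and the Vps11 call (adjusted p = 0.0085) passed whichever mouse was left out. The Plekhm2 call was lost without knock-in mouse 1 or wild-type mouse 2 (adjusted p 0.0543 to 0.0572). The calls of Vps39 and Vps16 were lost without any mouse but knock-in 3 (0.0836 to 0.126) and under quantile normalization, median centring or no filter (0.0504 to 0.0709). Across the alternatives 0 to 2 genes of this list were called lower. The 17 vacuolar ATPase subunits, which acidify the lysosome, had 1 higher (Atp6v0a1, 1.26-fold) and 2 lower (Atp6v0d2, 2.11-fold, and Atp6v1a, 1.59-fold). Their shares higher and lower, 5.88% and 11.8%, stood beside 14.9% and 10.9% of all tested probe sets. Each of these calls was lost without knock-in mouse 1 or wild-type mouse 2 (0.0608 to 0.123) and without knock-in mouse 5 (0.0524 to 0.11). The calls of Atp6v0a1 and Atp6v0d2 were lost without wild-type mouse 4 (0.0595 and 0.0872), and those of Atp6v0a1 and Atp6v1a without wild-type mouse 6 (0.147 and 0.0644). Atp6v0a1 was not called under median centring (0.0702), nor Atp6v0d2 with no filter (0.0509).

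Of 19 tested genes of the lysosomal membrane and of transport to it, 0 were called higher by limma and 2 lower (2 and 5 at an unadjusted p below 0.05), a share lower of 10.5% beside 10.9% of all tested probe sets. These were Igf2r, the mannose-6-phosphate receptor that sorts hydrolases (304, 298 and 398 against 637, 665 and 672, adjusted p = 0.00228), and Sort1 (189, 159 and 198 against 417, 224 and 311, adjusted p = 0.04). Sort1 was lost without any mouse but wild-type 4 (0.0696 to 0.099) and with no filter (0.0647). Of 36 other hydrolases and activators, 14 (38.9%) were lower and 3 (8.33%) higher, with a median log2 change of -0.25. Lipa, the lysosomal acid lipase that frees cholesterol and fatty acids, read 1527, 2331 and 1194 in knock-in mice and 4327, 4135 and 4219 in wild-type mice, 2.59-fold lower (adjusted p = 0.00425). Arsb, arylsulfatase B, read 392, 546 and 333 against 1076, 1067 and 1000, 2.47-fold lower (adjusted p = 0.00222). Ctsc, cathepsin C, read 812, 1797 and 522 against 2898, 2679 and 2437, 2.88-fold lower (adjusted p = 0.025). None of the 3 overlapped between the genotypes, and in each knock-in mouse 3 was the highest of the knock-in mice. The Ctsc call was lost without knock-in mouse 1 or any wild-type mouse (adjusted p from 0.0565 to 0.0879). The 3 called higher were Idua, Hgsnat and Galc, genes of the breakdown of glycosaminoglycans and galactolipids, with log2 changes of 1.06, 0.75 and 0.61.

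Together with the 8 hydrolases described above, 16 of 44 lysosomal hydrolase and activator genes (36.4%) were lower and 4 (9.09%) higher. Of all tested probe sets 10.9% were lower and 14.9% higher, shares not matched for brightness. The median log2 change of the 44 was -0.19. The count of lower genes depended on the mice: it was 7 without knock-in mouse 1, 6 without wild-type mouse 2 and 8 without wild-type mouse 6, and 18 without knock-in mouse 3, while 4 were higher each time. Calls over the whole table moved too. In the same order of fits, 15.9%, 16.8%, 17.1% and 29% of tested probe sets were called, against 25.9% with all mice. Lysosomal hydrolases are also made in macrophages and sinusoidal endothelial cells, so the markers of these cells were measured. Of 19 tested Kupffer cell and macrophage markers 3 were called lower by limma (Adgre1, Aif1 and Folr2) and 0 higher (7 and 1 at an unadjusted p below 0.05), with a median log2 change of -0.32. The share lower, 15.8%, stood beside 10.9% of all tested probe sets. Without overlap between the genotypes, 6 of the 19 were lower and 0 higher. Over all tested probe sets 41.1% did not overlap, in either direction. The summed level of the 20 markers was 5268 to 9062 in knock-in mice and 8036 to 13164 in wild-type mice, so the sums overlapped. Of 10 sinusoidal endothelial markers 5 (50%) were lower (Stab2, Clec4g, Kdr, Fcgr2b and Oit3) and 1 higher (Lyve1), with sums of 6851 to 9110 in knock-in mice and 8971 to 9768 in wild-type mice. Each of these 9 marker calls was lost without at least 1 mouse (adjusted p from 0.0506 to 0.129), knock-in mouse 1 for all but Lyve1 (knock-in mouse 5) and Fcgr2b (wild-type mouse 2 or 6). In whole liver, fewer cells of a type and less RNA per cell cannot be told apart, and the part of these cells in the hydrolase levels was not tested.

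Markers of the remaining cell types showed no common direction. Hepatocyte markers summed to 123873 to 133933 in knock-in mice and 117864 to 120588 in wild-type mice, so every knock-in sum was higher. Of these markers 2 of 9 were called higher (Tat and Hnf4a). Stellate cell and fibroblast markers had 1 of 9 higher (Dcn) and 1 lower (Lrat), and neutrophil markers 2 of 7 higher (S100a8 and Retnlg). Lymphocyte markers had 1 of 6 lower (Cd79b), and erythroid markers 1 of 2 lower (Alas2). Marker counts stand beside 14.9% of all tested probe sets called higher and 10.9% lower. Retnlg read 34, 37 and 34 in wild-type mice, below the filter intensity of 38.4, and 96, 76 and 89 in knock-in mice. It was tested only because of its knock-in values. The Tat call was lost without knock-in mouse 1 (limma adjusted p = 0.0509), and the Alas2 call without wild-type mouse 2 (0.0675) or 6 (0.061). Of 5 cholangiocyte markers 0 were called by limma, and 0 had an unadjusted p below 0.05. Neutrophil sums were higher in every knock-in mouse (570 to 583 against 415 to 490), and no sum without Retnlg was computed. Lymphocyte sums (509 to 549 against 558 to 630) and sums of the 2 erythroid markers (265 to 383 against 426 to 564) were lower. Sums overlapped for stellate cells and fibroblasts (7947 to 9357 against 7086 to 8038) and cholangiocytes (466 to 496 against 454 to 492).

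**Figure D4:**
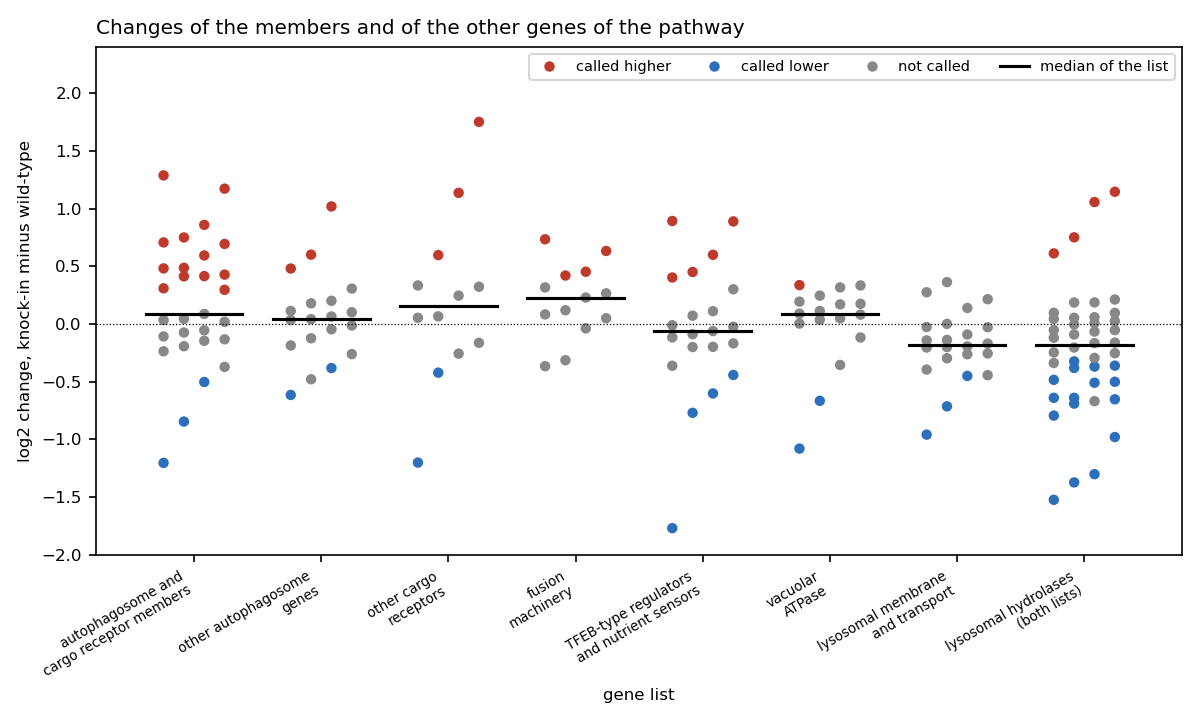
Each point is the log2 change, knock-in minus wild-type, of 1 gene in 1 of 8 lists, coloured by its call, with a bar at the list's median. Retreg1 (1.75) stands highest and Fnip2 (-1.77) lowest, and the column of 44 lysosomal hydrolase and activator genes has 16 called lower and 4 higher.

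**Figure D5:**
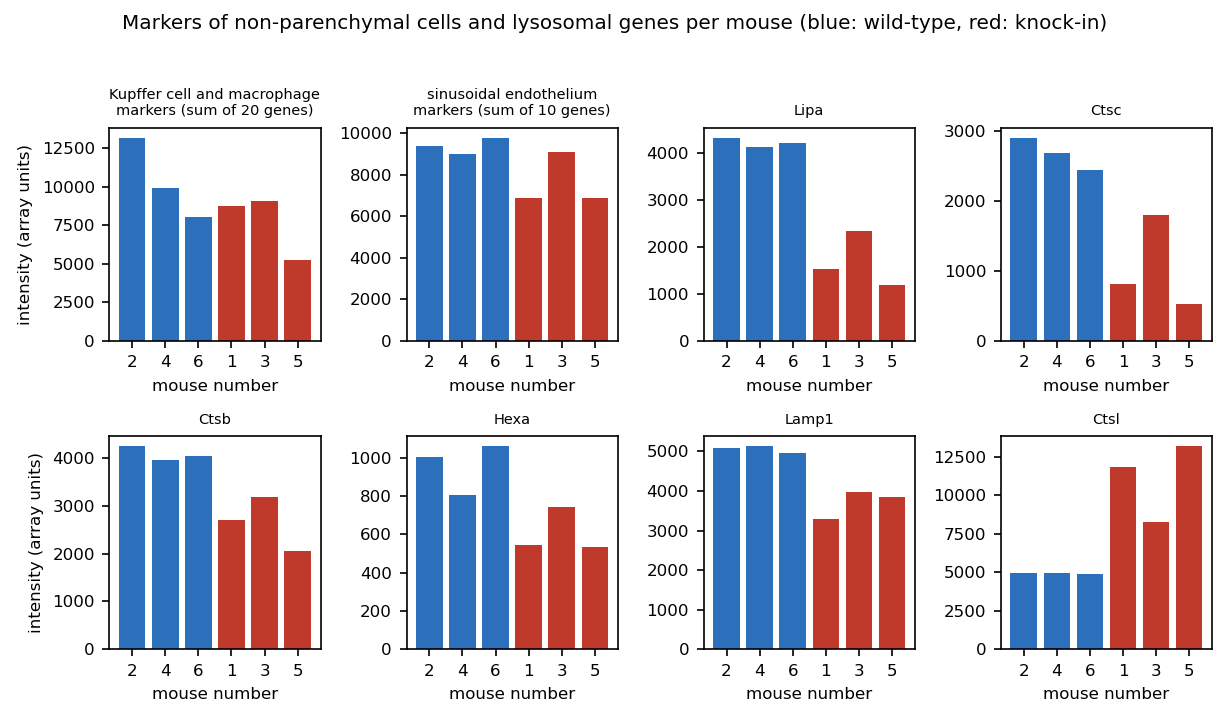
Bars give the intensity in each mouse (blue, wild-type 2, 4 and 6; red, knock-in 1, 3 and 5) for the summed markers of macrophages and of sinusoidal endothelium and for 6 lysosomal genes, on linear axes from 0. Knock-in mouse 3 is the highest knock-in bar for both marker sums and for Lipa, Ctsc, Ctsb, Hexa and Lamp1, and the lowest for Ctsl (8287).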

How the data were processed

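RNA from the liver of each of 6 mice (3 per genotype) was measured on 1-colour arrays. The deposited table held a linear intensity for every probe set in whole numbers. Probe summary, background correction and normalization by the authors are not given in the sources used here. Per the labels' protocols, RNA was column-purified, copied to cDNA and biotin-labelled during transcription in vitro.

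Array medians differed by 0.087 on the log2 scale, below the limit of 0.1 for rescaling, and intensities entered as log2(value + 16), which understates changes of dim genes. Probe sets whose mean log2 value was under the 25th percentile (an intensity of 38.4) were left out. The remaining 26634 were fitted with limma 3.58.1 in R 4.3.3 (lmFit, eBayes with trend), knock-in minus wild-type, two-sided, with Benjamini-Hochberg adjustment over all of them. The procedure was tested on simulated data. Genes are read from the brightest of the probe sets to which the platform annotation, which can be old, gives 1 symbol (21789; 1621 had several and 12102 were not listed). The 42 genes had 47 such probe sets. Levels of different probe sets are not compared. Each array is a separate mouse, and 3 per genotype limit the precision.

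Members, lists, ratio pairs and tests were chosen with earlier results of these data known, so list counts are descriptions. All 42 genes are named, with the up to 3 called genes of largest change per pathway list and the called genes per marker list; other pathway genes were named after their values were seen. Alternatives were pseudocounts of 1 and 64, quantile normalization, median centring, no filter or the 50th percentile, eBayes without trend or robust, the mean of a gene's probe sets, and each mouse left out. Promoter windows came from RefSeq. A planned comparison of ATG8 proteins was not made. Figures were drawn with matplotlib 3.10.9.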

Additional observations from a re-analysis of the deposited data

How the results depend on the processing

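No called gene among the 42 or among the other named genes reversed its direction under any alternative. The main counts stayed within 1.5 times their value under all alternatives of scaling, pseudocount, filter and variance prior. They were 6317 to 7057 probe sets called over the whole table (6888 as reported), 12 to 16 of the 42 genes higher (16) and 6 lower (6). Of autophagosome and cargo receptor genes 10 to 14 were higher (14), and of hydrolase and activator genes of both lists 15 to 17 were lower (16). Leaving out 1 mouse at a time moved these ranges to 4236 to 7725 over the table, and to 10 to 15 of the 42 higher and 4 to 8 lower. Of autophagosome and cargo receptor genes 8 to 13 were then higher and 3 to 4 lower, and of hydrolase and activator genes 6 to 18 were lower and 4 higher. The lowest counts of genes higher came without knock-in mouse 1, where 8 of the 22 calls were lost. These fits have fewer samples. Centring arrays on their medians moved the share of calls that were higher from 57.7% to 47.7% (quantile normalization, 52.3%), and the median of all tested probe sets from 0.03 to -0.02. In the 42 genes 10 calls over the 9 other alternatives fell below the threshold, in Atg9a, Atg12, Map1lc3a and Gabarapl1. With mice left out, 31 fell below it and 2 (Atg5 and Tfeb, without knock-in mouse 3) passed it. The array gives no detection calls here, so the lowest levels have no bound beyond the filter. No paired analysis was possible because knock-in and wild-type mice share no replicate number.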

Other observations

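Among the other pathway genes, CACGTG lay in the promoter windows of 24 of 116 genes with a window (20.7%), against 8.09% of all genes with a window. The palindromic CLEAR element of 10 bases lay in 4 of the 116 (Cln3, Igf2r, Vps16 and Vps33a), 3.45% against 0.37% of all genes with a window. Of these 4, Vps16 was called higher, Igf2r lower and the other pair not called. Of those tested, CACGTG lay in 3 of 13 called higher, 4 of 22 called lower and 16 of 75 not called. Base composition was not matched.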
